A study of Mus musculus with 18 samples.

Results

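Prostaglandins and leukotrienes are lipid mediators made from arachidonic acid, and 10 genes of their synthesis and sensing were followed here in macrophages. They were chosen by symbol for their place in the pathway: Pla2g4a, the cytosolic phospholipase that frees arachidonic acid from membranes; Ptgs1 and Ptgs2, the constitutive and inducible cyclooxygenases; Ptges, which makes prostaglandin E2, and Hpgds, which makes prostaglandin D2; Alox5, its membrane partner Alox5ap and Ltc4s, which together make leukotrienes; and Ptger2 and Ptger4, receptors for prostaglandin E2 that raise cyclic AMP. All 10 were among the 24485 genes of the deposited tables. In macrophages exposed to lipopolysaccharide (LPS), a bacterial cell wall component sensed by Tlr4, induction of the inducible cyclooxygenase together with the E synthase is a well known source of prostaglandin E2. Prostaglandin E2 acts back on the same cells through its receptors, and leukotrienes draw in and activate other leukocytes. These are measurements of RNA, and neither enzyme activity nor lipid was measured.

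RNA was sequenced from bone marrow-derived macrophages (BMDMs) of 12-week-old male C57BL/6J mice lacking Il10, grown with L929-conditioned medium, in 6 groups of 3 libraries. Cells were kept for 12 h without pretreatment, with 500 nM (+)-JQ1, an inhibitor that displaces bromodomain and extra-terminal (BET) proteins from acetylated chromatin, or with 10 ng/mL of added IL-10, the cytokine whose gene is deleted in these cells and which restrains inflammation. They then received 50 ng/mL LPS or PBS for 4 h. The groups are called unstimulated, JQ1, IL-10, LPS, LPS + JQ1 and LPS + IL-10, and the series' design describes them as biologically matched, so a replicate number was taken to name one mouse across groups, which the labels do not state. Every group lacked Il10, so nothing here compares with wild-type cells, and the study's methods name a vehicle for the pretreatment where the labels call the cells untreated.

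The libraries held 6781952 to 28289498 expected counts each, and 3 counts, the upper limit that a count of 0 allows, came to 0.106 to 0.442 CPM (counts scaled to library size). Sequencing lane followed replicate number except in replicate 2, whose libraries without LPS and with LPS were on different lanes. The targeted gene, Il10, still gave 27.1 to 177 normalised counts in every library, so these gene totals do not show the deletion. The 7 macrophage markers summed to 14070 to 29055 TPM (transcripts scaled for gene length and library total), most of it Lyz2. Single macrophage markers moved either way: Lyz2 averaged 18407 TPM in unstimulated and 24665 TPM in JQ1 libraries, and Itgam 309 and 86.3 TPM. The 8 markers of mast cells and basophils summed to no more than 0.61 TPM. The 7 neutrophil markers summed to 25.9 to 87.8 TPM in unstimulated and 8.01 to 17.5 TPM in JQ1 libraries, and to 36.8 to 52.3 TPM in LPS and 13.2 to 29.8 TPM in LPS + JQ1 libraries, with the defining marker Ly6g at 0 throughout. Their part in the differences below was not tested. Unstimulated replicate 1 was the highest of its group for Ptgs2, Ptges, Ptgs1 and Ptger4. Most results of these genes that used it and were called, or that its removal changed, are given with and without it. The exceptions are Ptgs1 and Ptger4 in LPS + JQ1 against unstimulated, and Ptger4 in LPS + JQ1 against LPS + IL-10. In the LPS and LPS + IL-10 groups, replicate 3 differed more from the others (chi-square per degree of freedom over genes 24.2 to 28.3) than any other pair of libraries within a group (3.98 to 10.5). In bulk RNA, fewer cells of a type and less RNA per cell cannot be told apart.

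The sequences just before the start of 4 genes are shown because these genes are the enzymes whose RNA moved most with LPS or JQ1 (Ptgs2, Ptges and Pla2g4a) and the constitutive counterpart of Ptgs2 (Ptgs1). They are the RefSeq promoters of the GRCm38.p6 table up to the annotated start, read on the gene's strand, and each matched mm9 at 1 place, given by mm9 coordinates; 9 of the 10 genes have an entry, and Alox5ap has none. Capitals mark C/EBP letters (TTGCNNAA) in Ptgs2 and PU.1 letters (GAGGAAGT) in Ptgs1.
Ptgs2, chr1:151946911-151947160, plus strand: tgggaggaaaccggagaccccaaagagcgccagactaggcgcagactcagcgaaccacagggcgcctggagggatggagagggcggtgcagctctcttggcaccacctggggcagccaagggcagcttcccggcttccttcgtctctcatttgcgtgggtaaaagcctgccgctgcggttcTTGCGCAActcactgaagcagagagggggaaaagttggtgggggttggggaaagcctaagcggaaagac
Ptges, chr2:30758820-30759067, minus strand: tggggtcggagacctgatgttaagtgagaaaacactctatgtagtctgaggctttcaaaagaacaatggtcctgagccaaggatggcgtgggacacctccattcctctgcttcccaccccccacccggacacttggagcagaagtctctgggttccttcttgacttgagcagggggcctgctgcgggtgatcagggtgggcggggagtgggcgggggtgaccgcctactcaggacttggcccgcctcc
Pla2g4a, chr1:151808421-151808670, minus strand: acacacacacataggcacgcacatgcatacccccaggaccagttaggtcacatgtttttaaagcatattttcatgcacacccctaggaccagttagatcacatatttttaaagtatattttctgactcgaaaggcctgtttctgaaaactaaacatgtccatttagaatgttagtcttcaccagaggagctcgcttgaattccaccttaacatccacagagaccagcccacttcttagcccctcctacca
Ptgs1, chr2:36085696-36085945, plus strand: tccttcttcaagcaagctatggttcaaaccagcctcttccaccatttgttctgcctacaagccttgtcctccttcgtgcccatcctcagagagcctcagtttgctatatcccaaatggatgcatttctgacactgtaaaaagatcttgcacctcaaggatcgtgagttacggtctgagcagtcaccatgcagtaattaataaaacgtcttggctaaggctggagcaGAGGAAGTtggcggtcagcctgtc
The Ptgs2 and Pla2g4a genes lie on chromosome 1, 138833 bases apart, with 1 annotated gene and no protein-coding gene between them. The GENCODE vM1 annotation starts Ptgs2 93 bases after the RefSeq start, and the Ptges window lies in an intron of a longer Ptges transcript, with 2 bases of exon left out. Over the 250 bases before the start, on both strands, C/EBP letters occur in 9.56% of 32851 promoters and in Hpgds and Ptgs2 here, PU.1 letters in 2.44% and in Hpgds and Ptgs1, NF-kB letters (GGGA, 4 bases of any kind, CC) in 17.6% and in Alox5, and TATAAA in 12.4% and in a second Pla2g4a window that is not shown. AP-1 letters (TGANTCA), found in 6.75% of promoters, the CRE half-site TGACGT in 6.47% and ISRE letters (GAAA, 2 bases of any kind, GAAA) in 2.98% occurred in no window of the 9 genes. These letters are a description of the windows and not sites of binding.

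LPS reshaped the RNA of this pathway. Compared with unstimulated cells, DESeq2 called 9 of the 10 genes at an adjusted p under 0.05, of which Ptgs2, Ptges, Pla2g4a and Ptger4 were higher and Ptger2, Ptgs1, Hpgds, Ltc4s and Alox5ap lower; of all genes tested 64.5% were called, 31.6% higher and 32.9% lower, so a call was common. The even split rests on the scaling: total-count scaling called 2223 genes higher and 8858 lower, and limma on log2(TPM + 1) 2296 and 7627. The median log2 fold change was -0.03 over the 10 genes and -0.07 over all genes with at least 10 counts in 3 libraries. The level of each gene in every library is shown in the plot of TPM by group.

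**Figure D1:**
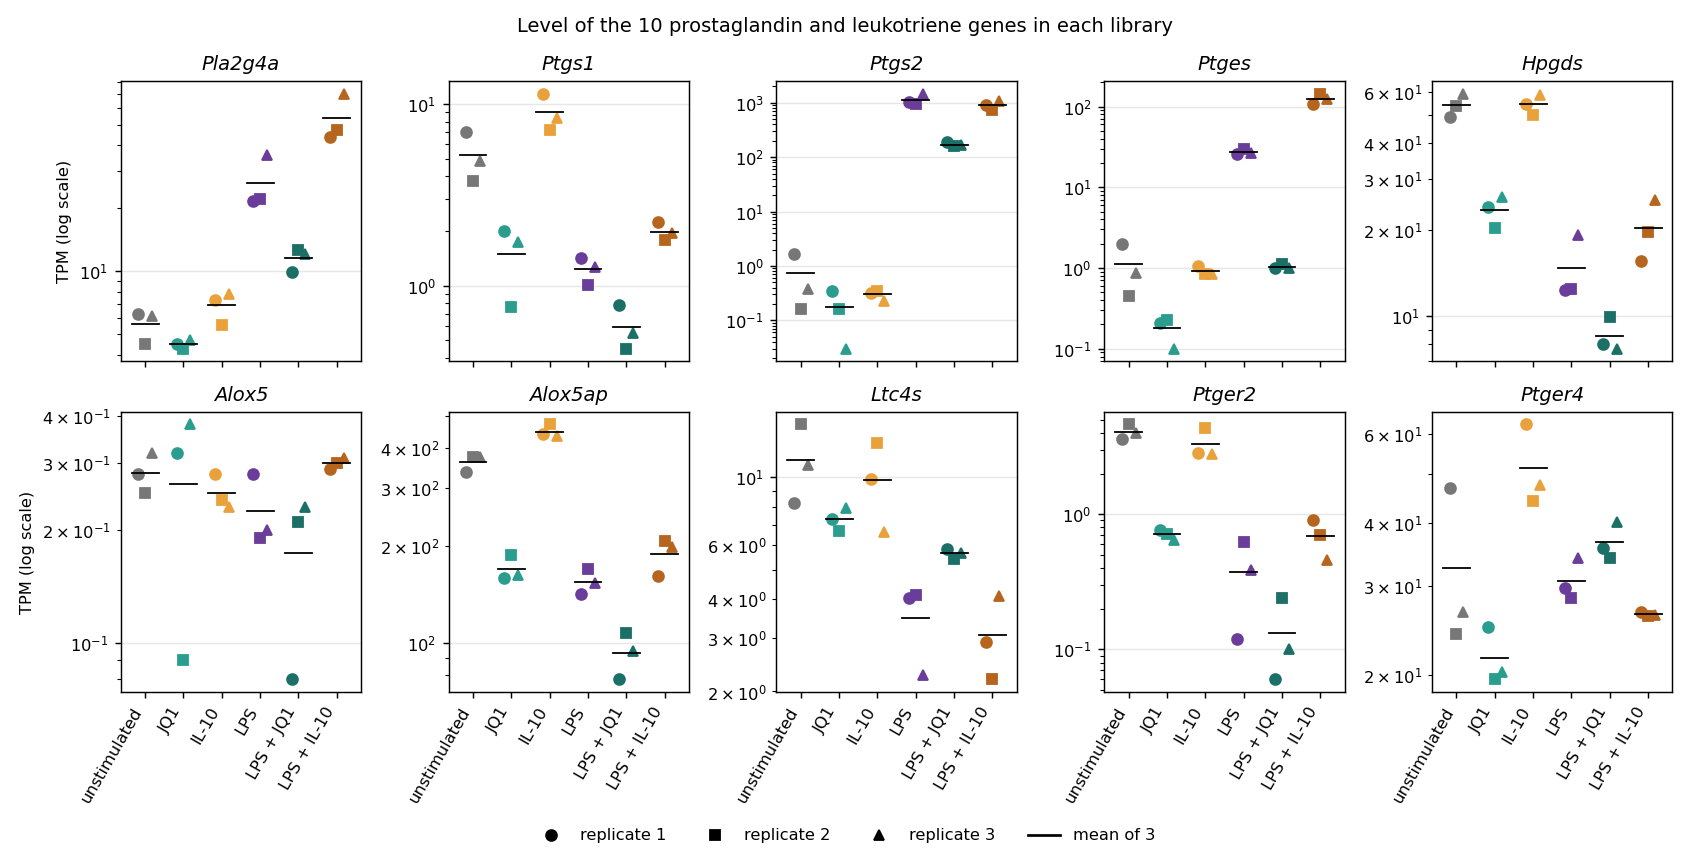
TPM (log axis) of each of the 10 genes in every library, by group; symbols mark the replicate number and bars the mean of 3. Ptgs2 averaged 0.73 TPM in unstimulated and 1144 TPM in LPS libraries, and Ptges stood at 27.4 TPM in LPS, 1.04 TPM in LPS + JQ1 and 125 TPM in LPS + IL-10 libraries.

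The inducible cyclooxygenase gave the widest change. Ptgs2 had 50.9, 5.07 and 11.4 normalised counts in unstimulated libraries and 58382, 51102 and 72221 in LPS libraries. The ranges were far apart, and the log2 fold change was 11.36 (SE 0.646, DESeq2 adjusted p = 4.6e-68). The low side rests on 66, 3 and 17 expected counts, and without unstimulated replicate 1 the log2 fold change was 12.6. In TPM, which allows genes to be set beside each other, Ptgs2 made up 19.0%, 4.09% and 7.29% of the summed cyclooxygenase RNA in unstimulated libraries and 99.9% in LPS libraries on average.

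The genes up- and downstream of Ptgs2 in prostaglandin E2 synthesis rose with it. Ptges had 50.1, 11.8 and 21.5 normalised counts without stimulation and 1200.4, 1291 and 1072 with LPS, a log2 fold change of 5.31 (SE 0.228, DESeq2 adjusted p = 1.72e-118) and of 6.01 without unstimulated replicate 1. Pla2g4a, which supplies the substrate, went from 120, 91.3 and 116 to 775, 747 and 1101 normalised counts, 7.90-fold (log2 2.98, SE 0.180, DESeq2 adjusted p = 1.68e-60). For both genes every LPS library was above every unstimulated one.

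The constitutive cyclooxygenase and the D2 synthase fell. Ptgs1 had 136, 76.1 and 91.8 normalised counts in unstimulated and 50.9, 34.1 and 39.3 in LPS libraries (log2 fold change -1.32, SE 0.308, DESeq2 adjusted p = 4.17e-05; -1.05 without unstimulated replicate 1). Hpgds had 1107, 1267 and 1309 in unstimulated and 515, 491 and 690.0 in LPS libraries (log2 fold change -1.12, SE 0.14, DESeq2 adjusted p = 3.97e-15). Neither pair of ranges overlapped. Hpgds is also a gene of mast cells, whose markers stayed at or below 0.61 TPM. The part of such cells in the Hpgds values was not tested.

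The leukotriene genes were uneven in level and moved less. Alox5ap, the most abundant of the 10 without LPS at 362 ± 22.1 TPM (SD, n = 3), had 1979, 2341 and 2194 normalised counts in unstimulated and 1545, 1781 and 1455 in LPS libraries (log2 fold change -0.44, SE 0.115, DESeq2 adjusted p = 0.000245). Every LPS library was below every unstimulated one. Ltc4s, at 26.2, 47.4 and 36.9 against 24.0, 24.8 and 12.3 normalised counts, passed at a log2 fold change of -0.81 (DESeq2 adjusted p = 0.0304), a call lost when any 1 replicate was left out. Alox5 gave 2 to 13 expected counts per library and group means of 0.173 to 0.3 TPM, too few to show a difference of moderate size. So the RNA of the enzyme partner Alox5ap was abundant where that of the lipoxygenase itself was near the floor.

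Of the E2 receptors, Ptger2 was lower with LPS and Ptger4 depended on the scaling. Ptger2 had 92.6, 125 and 102 normalised counts without and 5.66, 27.9 and 16.0 with LPS, with no overlap (log2 fold change -2.63, SE 0.386, DESeq2 adjusted p = 2.94e-11). Ptger4 had 1047, 565 and 586 normalised counts in unstimulated and 1230, 1110 and 1217 in LPS libraries, with a log2 fold change of 0.69 (SE 0.188, DESeq2 adjusted p = 0.000482) and 1.04 without unstimulated replicate 1. Its direction turned with the scaling, to -0.24 (adjusted p = 0.249) with total-count scaling and -0.02 on log2(TPM + 1), under which the median of all genes was at -0.997 and -0.70. Part of Ptger4 overlaps Ttc33 on the other strand and reads were assigned without strand, so its counts are uncertain. Ptger2 and Ltc4s also overlap genes on the other strand (Gm17173 and Gm16641), which have no counts of their own, so the same limit holds for them.

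The 10 genes together averaged 477 TPM in unstimulated, 1403 TPM in LPS, 328 TPM in LPS + JQ1 and 1319 TPM in LPS + IL-10 libraries. Alox5ap made up 75.8% of this sum in unstimulated libraries, where Ptgs2 was 0.357%, 0.0332% and 0.0779% by replicate, and Ptgs2 made up 81.1% in LPS libraries, where Alox5ap was 11.4%. In LPS + JQ1 libraries, Ptgs2 was 51.9% and Alox5ap 28.5% of the sum.

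**Figure D2:**
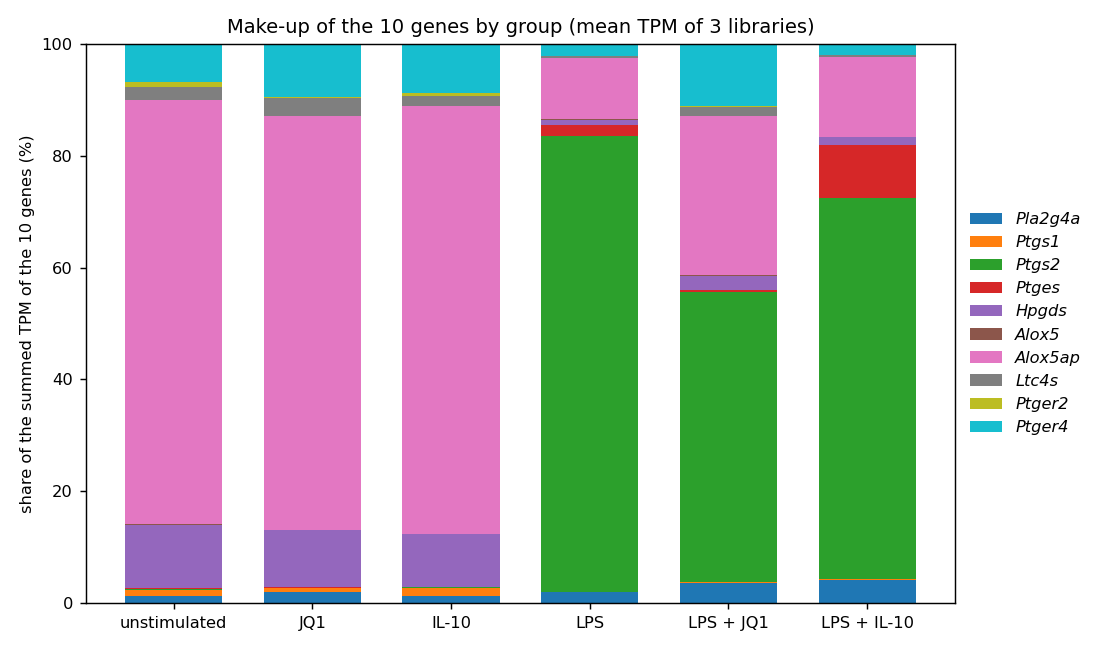
Share of the summed mean TPM of the 10 genes (vertical axis, percent) taken by each gene in the 6 groups (bars, means of 3 libraries). Alox5ap fills most of the bar in the 3 groups without LPS, and Ptgs2 most of it in the 3 groups with LPS.

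JQ1 alone lowered RNA of the pathway without LPS. Against unstimulated cells 6 of the 10 genes were called, all lower (Ptges, Ptger2, Ptgs2, Ptgs1, Hpgds and Alox5ap), where 45.7% of all genes tested were called, 21.9% higher and 23.7% lower (1670 genes higher and 4568 lower with total-count scaling). The median log2 fold change was -0.95 over the 10 genes and 0.00 over all genes with at least 10 counts in 3 libraries. The neutrophil markers given above were also lower with JQ1. So were the summed markers of B cells (2.34 to 5.13 TPM unstimulated, 0.2 to 0.5 TPM with JQ1). Those of T cells, mostly Cd4, went from 6.83 to 8.1 TPM to 3.06 to 3.92 TPM. The sums for fibroblasts, dendritic cells and platelets overlapped, and those for macrophages and for mast cells and basophils were higher with JQ1. The part of these cells was not tested.

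Among the synthesis genes, Ptges had 6.05, 6.90 and 2.75 normalised counts with JQ1, all below the unstimulated libraries (log2 fold change -2.52, SE 0.417, DESeq2 adjusted p = 1.12e-08). These rest on 7, 7 and 3 expected counts with JQ1 and 65, 7 and 32 in unstimulated libraries. Without unstimulated replicate 1 the value was -1.83 (adjusted p = 0.000173). Ptgs1 had 44.1, 17.7 and 38.5, again below every unstimulated library (log2 fold change -1.61, DESeq2 adjusted p = 8.98e-07; -1.33 without unstimulated replicate 1). Hpgds had 615, 551 and 662 (log2 fold change -1.01, DESeq2 adjusted p = 2.97e-12) and Alox5ap 1068, 1333 and 1106 normalised counts (log2 fold change -0.89, DESeq2 adjusted p = 1.49e-13). Every JQ1 library was below every unstimulated one for both genes. The receptor Ptger2 did likewise, with 22.5, 22.7 and 19.2 normalised counts under JQ1 (log2 fold change -2.30, DESeq2 adjusted p = 1.36e-09).

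The call for Ptgs2 under JQ1 was weak. Its normalised counts were 12.1, 5.91 and 0.916, overlapping the unstimulated ones, with a log2 fold change of -1.86 (DESeq2 adjusted p = 0.0236) that became -0.55 (adjusted p = 0.397) without unstimulated replicate 1 and was also lost without replicate 1 (0.145) or replicate 3 (0.0573) of every group. Pla2g4a did not pass, at 98.6, 99.6 and 102.6 normalised counts with JQ1 (log2 fold change -0.14, 95% interval -0.52 to 0.24). Ptger4 was at a log2 fold change of -0.39 (DESeq2 adjusted p = 0.0799). It passed with the replicate number as a block (-0.36, adjusted p = 0.0292) and with total-count scaling (-0.57, adjusted p = 0.00832). It also passed on both TPM scales (-0.52, limma adjusted p = 0.0311 on log2(TPM + 1)). Without unstimulated replicate 1 it stood at -0.038 (adjusted p = 0.874).

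DESeq2 called 7 of the 10 genes lower with JQ1 before LPS than with LPS alone, and none higher. Here 57.3% of all genes tested were called, 24.4% higher and 32.9% lower, a balance that total-count scaling turned to 5524 genes higher and 2994 lower and limma on log2(TPM + 1) to 4929 and 2930. The median log2 fold change was -1.21 over the 10 genes and -0.10 over all genes with at least 10 counts in 3 libraries. The plot of the JQ1 and IL-10 effects with and without LPS sets the members side by side. This comparison and the LPS comparison share the LPS libraries.

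**Figure D3:**
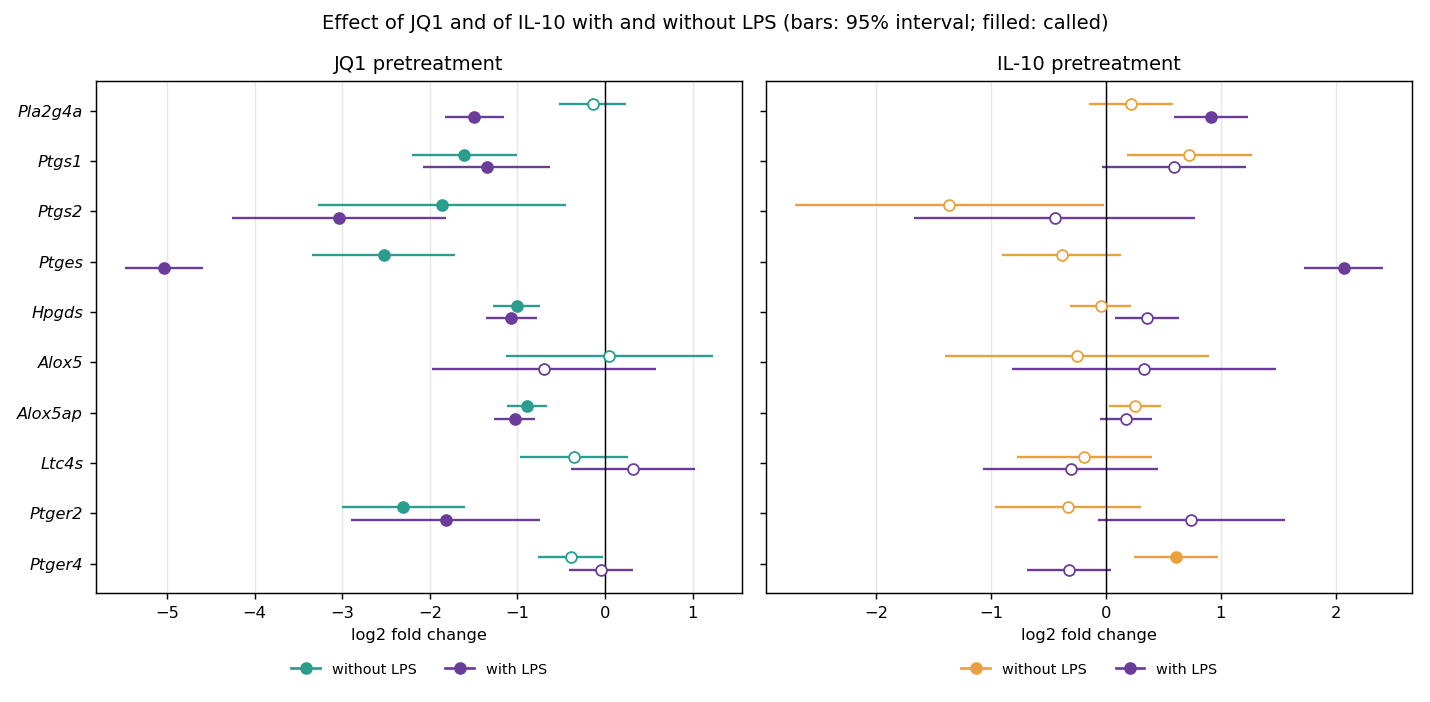
Log2 fold change (horizontal axis) of each gene with JQ1 (left panel) or IL-10 (right panel), without LPS and with LPS; bars are 95% intervals and filled points are called at an adjusted p under 0.05. With LPS, Ptges stands at -5.03 with JQ1 and 2.07 with IL-10, and Pla2g4a at -1.49 and 0.91.

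Ptges showed the deepest fall. From 1200.4, 1291 and 1072 normalised counts with LPS it stood at 36.4, 37.9 and 34.5 in LPS + JQ1 libraries, 32.7-fold lower (log2 fold change -5.03, SE 0.228, DESeq2 adjusted p = 2.89e-106). Against unstimulated cells, the LPS + JQ1 value was not called (log2 fold change 0.28, 95% interval -0.25 to 0.81, DESeq2 adjusted p = 0.387), with overlapping ranges; without unstimulated replicate 1 it was 0.98 (adjusted p = 0.00266). Against JQ1 alone LPS still raised Ptges, by 2.80 on the log2 scale (DESeq2 adjusted p = 7.7e-11).

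Ptgs2 and Pla2g4a fell but stayed above unstimulated cells. Ptgs2 had 8464, 6587 and 7113 normalised counts in LPS + JQ1 libraries, 8.20-fold below LPS (log2 fold change -3.04, SE 0.622, DESeq2 adjusted p = 3.41e-06) but 8.32 above unstimulated cells on the log2 scale (adjusted p = 5.87e-37; 9.62 without unstimulated replicate 1). Pla2g4a had 279, 328 and 326, 2.81-fold below LPS (log2 fold change -1.49, SE 0.17, DESeq2 adjusted p = 1.15e-17), and stood 1.49 above unstimulated cells on the log2 scale (adjusted p = 2.81e-15). Every LPS + JQ1 library was below every LPS library for both genes.

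Ptgs1, Hpgds, Alox5ap and Ptger2 were also lower with JQ1 in LPS-treated cells. Ptgs1 had 22.1, 11.6 and 14.8 normalised counts (log2 fold change -1.35, DESeq2 adjusted p = 0.000633), Hpgds 264, 300.1 and 243 (-1.07, adjusted p = 2.23e-12) and Alox5ap 671, 865 and 801 (-1.03, adjusted p = 1.67e-17). Ptger2, at 2.21, 8.42 and 3.69 normalised counts from 2, 8 and 3 expected counts, passed at -1.82 (SE 0.55, DESeq2 adjusted p = 0.00216), with overlapping ranges and a call lost on log2(TPM + 1) and when only the groups compared were fitted. Ptger4 (log2 fold change -0.04, 95% interval -0.41 to 0.32) and Ltc4s (0.32, 95% interval -0.38 to 1.03) did not pass. On both TPM scales Ltc4s was called higher (0.60, limma adjusted p = 0.0322 on log2(TPM + 1)).

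Whether JQ1 acted differently with LPS was tested as an interaction, which called 2 of the 10 genes, both lower, where 41.5% of all genes tested were called, 17.7% higher and 23.8% lower. With total-count scaling 5964 genes were called higher and 1023 lower, and with limma on log2(TPM + 1) 5665 and 1160. The interaction on the log2 scale was -2.51 for Ptges (SE 0.475, DESeq2 adjusted p = 9.37e-07; -3.20 without unstimulated replicate 1) and -1.35 for Pla2g4a (SE 0.258, DESeq2 adjusted p = 1.26e-06). The Ptges value rests on 7, 7 and 3 expected counts with JQ1 alone. For Pla2g4a, JQ1 alone gave -0.14 and JQ1 before LPS -1.49. For Ptgs2 it was -1.17 (SE 0.952, DESeq2 adjusted p = 0.339), and -2.48 (adjusted p = 1.08e-05) without unstimulated replicate 1. The split changed with the scaling: total-count scaling called 4 members higher and 2 lower, and limma on log2(TPM + 1) 4 higher and 3 lower, while Ptges and Pla2g4a were called lower in both.

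IL-10 before LPS raised Ptges and Pla2g4a, both of which JQ1 lowered. Against LPS alone it called 2 of the 9 members tested, Ptges and Pla2g4a, both higher, where 17.2% of all genes tested were called, 8.38% higher and 8.81% lower (1511 genes higher and 615 lower with total-count scaling). Alox5 received no adjusted p. Ptges had 4589, 5723 and 4651 normalised counts in LPS + IL-10 libraries, 4.20-fold above LPS (log2 fold change 2.07, SE 0.175, DESeq2 adjusted p = 5.69e-30). Pla2g4a had 1451, 1444 and 2039, 1.88-fold above LPS (log2 fold change 0.91, SE 0.164, DESeq2 adjusted p = 6.49e-07). Each LPS + IL-10 library was above each LPS library for both. Without replicate 3, the highest for Pla2g4a in both groups, the log2 fold change was 0.93 for Pla2g4a (adjusted p = 3.2e-09) and 2.05 for Ptges (adjusted p = 8.36e-05).

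Ptgs2 did not share the calls of Ptges and Pla2g4a under IL-10, and the genes were not tested against each other. It had 47791, 35497 and 49891 normalised counts, below LPS in 3 of 3 pairs, but the log2 fold change was not called (-0.45, 95% interval -1.67 to 0.77, DESeq2 adjusted p = 0.740). Without unstimulated replicate 1 it passed, at an adjusted p of 0.0334, and under no other alternative run. That library is in neither group compared, but the fit shares 1 estimate of the spread per gene over all groups. Hpgds and Alox5ap, at 605, 701 and 859 and at 1654, 1985 and 1760 normalised counts, overlapped the LPS libraries. With the replicate number as a block they passed, at 0.36 (adjusted p = 0.0217) and 0.18 (adjusted p = 0.0423) on the log2 scale. Hpgds, at a DESeq2 adjusted p of 0.0629 without the block, passed under other alternatives too. These were TMM factors (0.37, adjusted p = 0.0487), total-count scaling (0.45, adjusted p = 0.0199), lane as a term and leaving out replicate 3. Ptgs1, with 74.4, 54.7 and 56.8 normalised counts, stood above every LPS library without passing (0.59, DESeq2 adjusted p = 0.229).

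Without LPS, IL-10 called 1 of the 10 genes, Ptger4, where 2.81% of all genes tested were called, 1.8% higher and 1.01% lower (130 genes higher and 27 lower with limma on log2(TPM + 1)). Ptger4 had 1357, 995 and 1005 normalised counts with IL-10, overlapping the unstimulated range through replicate 1 (log2 fold change 0.61, SE 0.187, DESeq2 adjusted p = 0.0435; 0.96 without unstimulated replicate 1). The call was lost with edgeR (adjusted p = 0.106) and without replicate 2 (0.424) or replicate 3 (0.237). It was also lost on both TPM scales (limma adjusted p = 0.0958 on log2(TPM + 1)) and with no filter. When only the groups compared were fitted it was lost as well, and Ptgs1 and Alox5ap passed instead. With the replicate number as a block, Ptgs1 and Alox5ap also passed (0.74, adjusted p = 0.000743; 0.25, adjusted p = 0.0025), and Ptgs1 also without unstimulated replicate 1 (0.998, adjusted p = 0.0282). Ptges had 25.9, 21.5 and 19.9 normalised counts with IL-10, within the unstimulated range.

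The interaction of IL-10 with LPS called 2 of 9 members tested, where 7.44% of all genes tested were called, 4% higher and 3.44% lower (690 genes higher and 248 lower with total-count scaling). Ptges was higher than the separate effects add up to, by 2.46 on the log2 scale (SE 0.317, DESeq2 adjusted p = 3.64e-12; 1.74 without unstimulated replicate 1), and Ptger4 lower, at -0.93 (SE 0.265, DESeq2 adjusted p = 0.0089; -1.29 without unstimulated replicate 1), a call lost without replicate 2 (adjusted p = 0.148) or 3 (0.113). The Ptger4 call was also lost on both TPM scales (limma adjusted p = 0.0668 on log2(TPM + 1)). Pla2g4a was 0.69 (adjusted p = 0.0657) and passed with the replicate number as a block (0.68, adjusted p = 0.0104). With total-count scaling Pla2g4a passed too (0.79, adjusted p = 0.0325).

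LPS was also read within each pretreatment. After JQ1 it called 8 members, 4 higher and 4 lower, where 58.6% of all genes tested were called, 27.6% higher and 31% lower; after IL-10 it called 8, 3 higher and 5 lower, where 67% were called, 33.2% higher and 33.8% lower. Total-count scaling called 2274 genes higher and 6599 lower after JQ1, and 2281 and 8590 after IL-10. Ptges rose by 5.31 without pretreatment, 2.80 after JQ1 and 7.76 after IL-10 on the log2 scale, and Ptgs2 by 11.36, 10.18 and 12.27. Pla2g4a rose by 2.98, 1.63 and 3.68. Ptger4 was higher by 1.03 after JQ1 and was not called after IL-10 (-0.24, DESeq2 adjusted p = 0.250). The result after IL-10 depended on the scaling. There Ptger4 was called lower with total-count scaling (-1.07, DESeq2 adjusted p = 2.41e-08). It was also called lower on both TPM scales (-0.92, limma adjusted p = 0.000265 on log2(TPM + 1)).

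**Figure D4:**
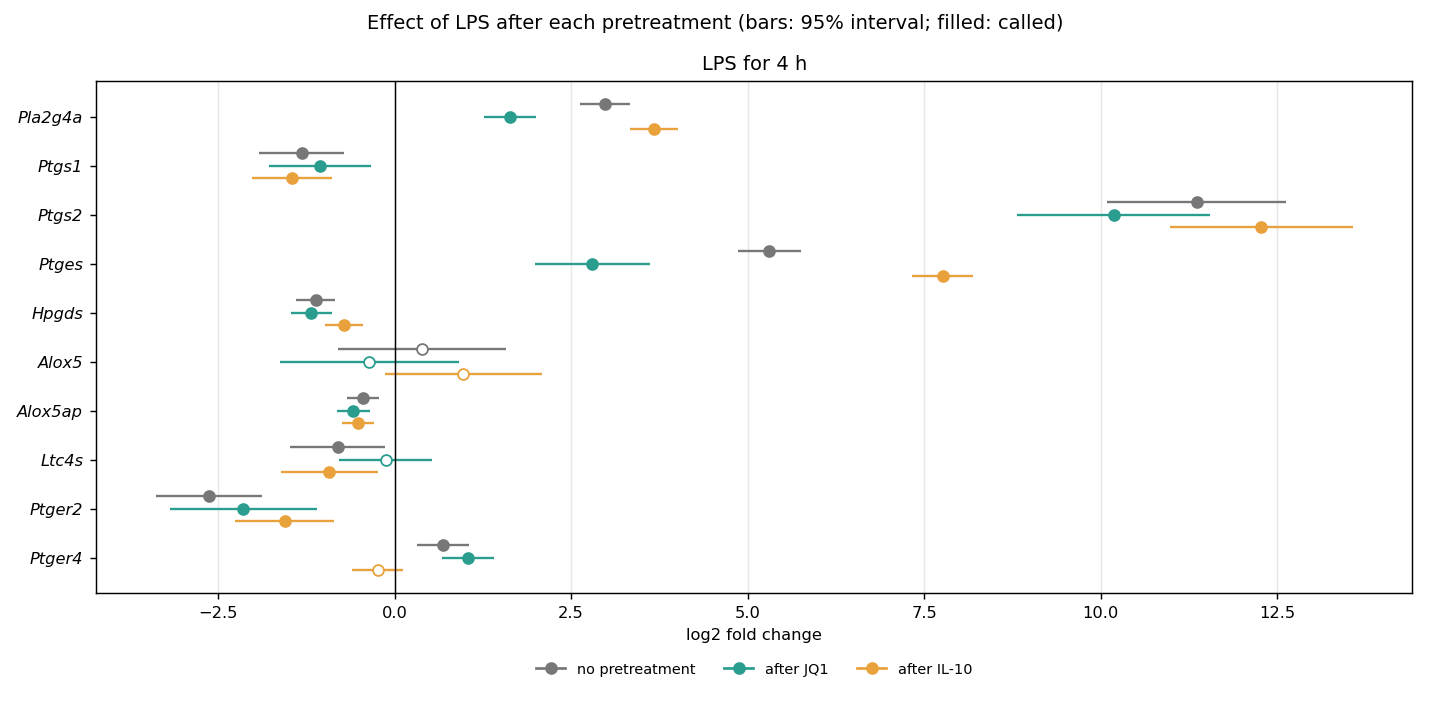
Log2 fold change with LPS (horizontal axis) of each gene without pretreatment, after JQ1 and after IL-10; bars are 95% intervals and filled points are called at an adjusted p under 0.05. Ptges spreads from 2.80 after JQ1 to 7.76 after IL-10, while Ptgs2 lies between 10.18 and 12.27 in all 3.

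The 2 pretreated LPS groups were also compared directly, which called 7 members lower in LPS + JQ1 than in LPS + IL-10, where 55.3% of all genes tested were called, 23.8% higher and 31.6% lower (4961 genes higher and 3139 lower with total-count scaling). Ptges was 137-fold lower (log2 fold change -7.10, SE 0.226, DESeq2 adjusted p = 2.82e-213). Pla2g4a differed by -2.40 (adjusted p = 7.29e-45) and Ptgs2 by -2.59 (adjusted p = 9.12e-05). Against unstimulated cells, LPS + JQ1 called 7 members, 3 higher and 4 lower, where 62.4% of all genes tested were called, 30.1% higher and 32.3% lower (2161 and 7545 genes with total-count scaling).

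The other genes of the pathway were 51, of which 7 had no count in any library. With LPS 10 were higher and 10 lower, 13 were tested and not called and 18 were not tested; with total-count scaling the split was 6 higher and 20 lower, and on log2(TPM + 1) 3 and 15. JQ1 alone gave 3 higher and 12 lower, and IL-10 alone 1 and 1. JQ1 before LPS gave 4 higher and 12 lower, 11 higher and 9 lower with total-count scaling, and 8 and 12 with TMM factors. IL-10 before LPS gave 5 higher and 3 lower. Their median log2 fold change over the genes tested was -0.04 with LPS, -0.43 with JQ1 before LPS and -0.01 with IL-10 before LPS.

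Among receptors, Cysltr1, which binds cysteinyl leukotrienes, was at 171, 175 and 264 normalised counts with LPS and at 14.4, 14.7 and 14.8 with JQ1 before LPS (log2 fold change -3.80, SE 0.331, DESeq2 adjusted p = 2.68e-29). It was higher with IL-10 before LPS (0.97, DESeq2 adjusted p = 0.000755), a call lost without replicate 2. Ptgir, the prostacyclin receptor, fell from 188, 148 and 108 to 26.5, 21.1 and 14.8 normalised counts (-2.82, DESeq2 adjusted p = 1.53e-21).

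A gene of prostaglandin breakdown and a pair of phospholipases were lower with LPS. Hpgd, which inactivates prostaglandin E2, fell by 2.77 on the log2 scale with LPS (DESeq2 adjusted p = 1.29e-27) and by 3.23 more with JQ1 before LPS (adjusted p = 8.86e-12), reaching 8.83, 3.16 and 3.69 normalised counts. Pla2g15 and Pla2g6 fell by 2.89 and 2.78 with LPS. Dpep2, which trims leukotriene D4, fell by 2.25 with JQ1 alone (adjusted p = 2.74e-190); it overlaps Dus2 on the other strand, so a few of its reads may be shared.

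**Figure D5:**
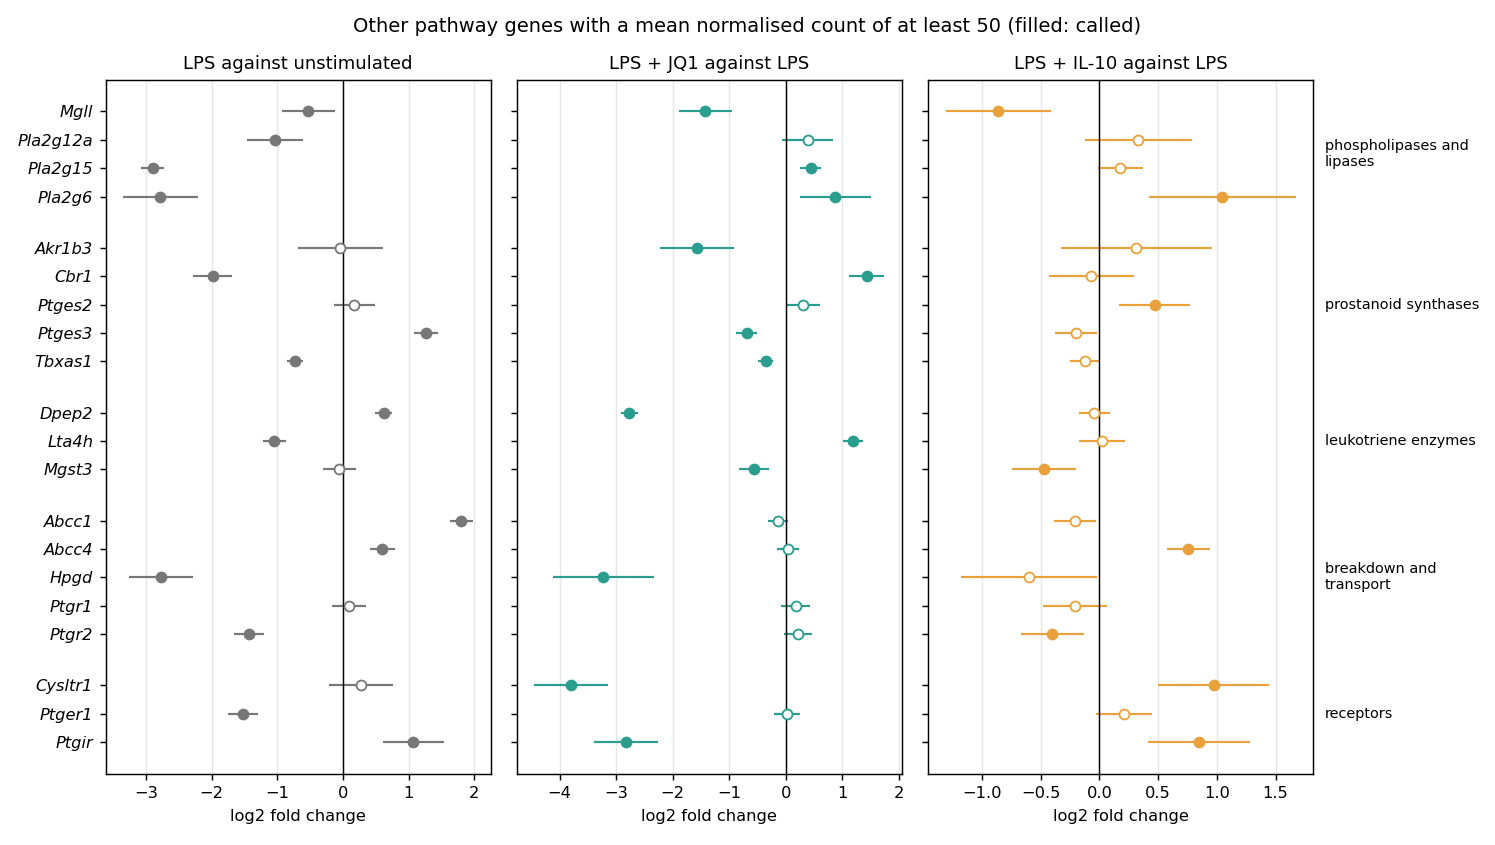
Log2 fold change (horizontal axis) of the 20 other pathway genes averaging 50 or more normalised counts, by role, for LPS against unstimulated, LPS + JQ1 against LPS and LPS + IL-10 against LPS; bars are 95% intervals and filled points are called. Cysltr1 stands at -3.80 with JQ1 before LPS and at 0.97 with IL-10 before LPS.

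By Pearson correlation of variance-stabilised counts over the 18 libraries, among 9487 genes, the genes most like Ptgs2 were Ifi204, Parp9 and Tap1 (r = 0.998, 0.997 and 0.997). Those most like Ptges were Cp, Myadm and Alpk1 (r = 0.993, 0.992 and 0.992), and those most like Pla2g4a were Map3k8, B4galt5 and Slc39a14 (r = 0.991, 0.990 and 0.989). Among the 10 genes, Pla2g4a was closest to Ptges (r = 0.959) and to Ptgs2 (r = 0.936), and Hpgds to Ptger2 (r = 0.904) and Alox5ap (r = 0.901). These values are a description: the points share their groups, mice and size factors.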

How the data were processed

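RNA was sequenced from the 18 libraries as paired-end, stranded, ribosomal RNA-depleted libraries. The authors trimmed reads with TagDust, aligned them to mm9 with STAR and estimated gene levels with RSEM 1.2.31, whose assignment did not use strand. The deposited tables hold, per gene, expected counts, TPM, which divides by length and by the library's total, and effective length (used as an offset only). Expected counts need not be whole. In each library 5.40% to 6.63% of all 24485 genes, those without a count included, had a value that was not whole. Expected counts were rounded and fitted with DESeq2 1.42.0 in R 4.3.3 over all 18 libraries with group as the term, median-of-ratios scaling, and Benjamini-Hochberg adjustment, called at an adjusted p under 0.05. Normalised counts are expected counts over these size factors. edgeR 4.0.16 and limma 3.58.1 were alternatives. The fit makes 1 estimate of the spread per gene, shared by all 6 groups of 3 libraries. Each p and each 95% interval, taken from the DESeq2 standard errors, rests on it and not on the groups compared alone. Comparisons share control libraries.

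The series' design describes biologically matched samples and the labels name 3 mice, so a replicate number was taken to name a mouse, which no source states outright. The correlation of the deviations of same-numbered libraries averaged 0.169 (LPS against unstimulated), 0.144 (JQ1 against unstimulated), 0.270 (IL-10 against unstimulated), 0.510 (LPS + IL-10 against LPS) and -0.07 (LPS + JQ1 against LPS, with single pairs from -0.251 to 0.208). The members and the lists were chosen with earlier results of these data known. The 10 genes are all named; of the 51 other pathway genes, up to 3 called genes per comparison with the largest fold and a mean normalised count of at least 50 qualify. The tests were tried on simulated data for LPS + JQ1 against LPS, where the false share of calls was above the threshold for DESeq2 and below it for edgeR. Floors of 3 counts cover counting error only.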

Additional observations from a re-analysis of the deposited data

Results flagged for a closer look

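Effects that differ between cells with and without LPS were tested by interaction. The effect of JQ1 on Ptges was stronger with LPS than without by -2.51 on the log2 scale (DESeq2 adjusted p = 9.37e-07), and that on Pla2g4a by -1.35 (DESeq2 adjusted p = 1.26e-06). The Ptges value rests on few expected counts with JQ1 alone (7, 7 and 3). The effect of IL-10 on Ptges was larger with LPS by 2.46 (DESeq2 adjusted p = 3.64e-12), and that on Ptger4 was lower by -0.93 (DESeq2 adjusted p = 0.0089). The Ptger4 call was lost on both TPM scales and without replicate 2 or replicate 3. The 3 IL-10-treated libraries with LPS were above the 3 libraries with LPS alone for Ptges.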

How the results depend on the processing

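Of 110 values, one for each gene and comparison, 59 were called, and 50 of these were called in the same direction under every alternative run. Ptger4 with LPS turned to -0.24 with total-count scaling and to -0.023 on log2(TPM + 1) and -0.022 on log2(TPM + 0.1). With total-count scaling the interaction of JQ1 and LPS turned for Alox5ap (0.41) and Hpgds (0.49). The count of called genes moved by over 1.5 times in 4 comparisons; in the others it ranged from 8 to 9 (LPS against unstimulated), 5 to 7 (JQ1 against unstimulated), 6 to 8 (LPS + JQ1 against LPS, and against unstimulated), 7 to 9 (LPS + JQ1 against LPS + IL-10, and LPS + IL-10 against IL-10) and 7 to 8 (LPS + JQ1 against JQ1). For IL-10 against unstimulated it was 1, and 0 with edgeR, with both TPM scales and with no filter, 2 with only the groups compared, 3 with the replicate block, 2 without unstimulated replicate 1, which was chosen after seeing the data, and 0 to 1 when 1 replicate was left out. For LPS + IL-10 against LPS it was 2, and 4 with the replicate block. Other alternatives added a call to Ptges and Pla2g4a. Hpgds passed with TMM factors, total-count scaling, lane as a term and without replicate 3. Ptger4 passed without replicate 1, and Ptgs2 without unstimulated replicate 1. For the interaction of JQ1 and LPS it was 2, and 6 with total-count scaling, 7 on log2(TPM + 1) and 5 on log2(TPM + 0.1). Ptgs2 also passed there without unstimulated replicate 1. For the interaction of IL-10 and LPS it was 2, 1 on both TPM scales and 1 to 2 when 1 replicate was left out. Pla2g4a also passed there with total-count scaling, the replicate block and lane as a term. Beside the calls named as lost with the results, those of Ptgs1 with LPS after JQ1, Ltc4s with LPS after IL-10 and Ptger4 in LPS + JQ1 against unstimulated were lost under at least 1 alternative. The replicate block changed no other call than those given beside the results. With lane as a term no call was lost, and 2 passed: Hpgds, LPS + IL-10 against LPS (0.36, adjusted p = 0.0308), and Pla2g4a, interaction of IL-10 and LPS (0.69, adjusted p = 0.0457). The 3 libraries a group and, for Alox5 and the low sides of Ptgs2 and Ptges, few counts limit precision. The cause of these changes was not tested.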
